A study of Mus musculus with 6 samples.

Results

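Chemokines are small secreted proteins that direct the movement of leukocytes, and their receptors are G protein-coupled receptors on the cells that follow them. The genes described here were every gene whose symbol on the array was Ccl, Cxcl, Ccr, Cxcr or Xcr followed by a number, together with Xcl1, Cx3cl1 and Cx3cr1. That gave 56 of the 21630 named genes, 36 chemokines and 20 receptors. Where a gene had several probe sets, the one with the highest mean over all arrays stood for it. RNA came from the lungs of 6 C57BL/6 mice, 8 weeks old, which received 100 uL of medium intraperitoneally each day for 7 days. The LN4 lungs (replicates 1 and 3) came from mice given medium conditioned by PC3M-LN4 cells, a metastatic derivative of the human prostate cancer line PC3. The PC3 lungs (replicates 4 and 5) came from mice given medium conditioned by PC3 cells themselves. The Control lungs (replicates 2 and 4) came from mice given plain RPMI culture medium. All groups shared the strain, the age, the route and the schedule. Each conditioned medium came from 1 human cell line and was given without the cells. From the title of the study, the question was how lungs that favour metastasis differ from lungs that resist it.

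In the lung, chemokines fall by use into a homeostatic group, which places lymphocytes, dendritic cells and stem cells in healthy tissue, and an inflammatory group, which is switched on by cytokines and microbial products and calls in neutrophils, monocytes and effector lymphocytes. A receptor usually answers several ligands and a ligand several receptors. Some pairs are nearly private, such as Cxcl12 with Cxcr4, Cx3cl1 with Cx3cr1, and Ccl19 and Ccl21a with Ccr7.

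The arrays differed in ways that the groups do not account for. In each group 1 array detected fewer probe sets than the other. LN4 replicate 1, PC3 replicate 4 and Control replicate 2 detected 35.4% to 39.8% of probe sets, and the other 3 arrays 46.1% to 50.9%. These are called low- and high-detection arrays here, and differences are given within each kind where a result depends on it. LN4 replicate 3 stood apart, with correlations of 0.918 to 0.933 with the other arrays, against 0.961 to 0.99 among the others. It held transcripts of squamous epithelium and of skeletal muscle, and PC3 replicate 4 held squamous transcripts too: the mean of 8 squamous keratin and envelope genes was 5.28 and 11.11 in LN4 lungs, 7.56 and 4.99 in PC3 lungs, and 5.13 and 5.05 in Control lungs, on the log2 scale. The tissue label held in all 6 arrays, since each of 10 lung epithelial markers lay above the level of the negative controls on every array, with Sftpc, the surfactant protein C gene, between 13.86 and 14.04.

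All values are log2 RMA values, so that a difference of 1 is a doubling, and differences carry the standard error (SE) of a limma fit over all 6 arrays with p-values adjusted over 21330 probe sets. Replicates were 1 array per mouse, 2 mice per group, so a p-value measures the spread between those mice. In whole tissue, fewer cells of a type and less RNA per cell cannot be told apart. The 95th percentile of the negative control probe sets, a mark of the array's background, lay between 7.37 and 7.69. Since probe sets differ in how well they bind, the levels of different genes are not set against each other.

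Most of these genes were near the background. Of the 56 genes, 8 lay above the 95th percentile of the negative controls on all 6 arrays: Cxcl15, Ccl6, Cxcl17, Ccl21a, Cxcr4, Cxcl16, Ccl5 and Cxcl12. Another 3 did so on some arrays, Cxcl14 and Cx3cl1 on 5 and Ackr3 on 1, and 45 on none. Among those 45 were 18 of the 20 receptors. For 17 of the 56 genes the mean was too low to enter the tests, which left 39.

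**Figure D1:**
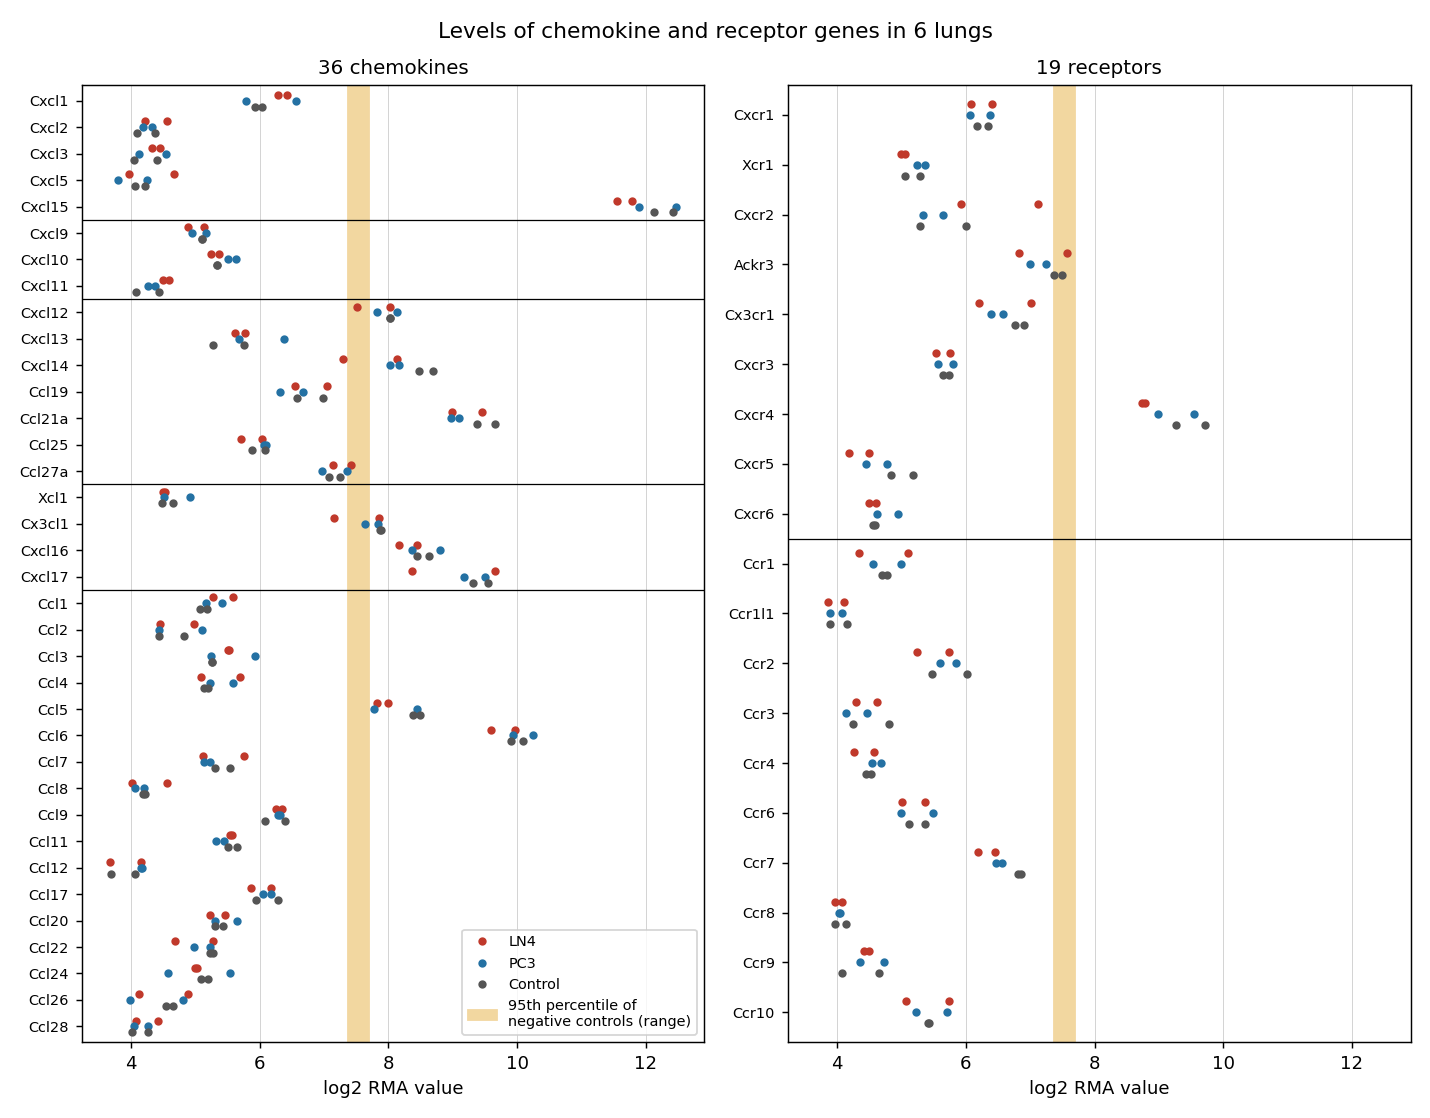
Log2 RMA values of the 36 chemokine genes (left) and 19 of the 20 receptor genes (right), with 1 point per lung (red for LN4, blue for PC3, grey for Control) and a band that spans the 95th percentile of the negative controls over the 6 arrays (7.37 to 7.69). Lines part the roles, from the top of the left panel the neutrophil-attracting, interferon-induced, homeostatic, other and inflammatory CC chemokines, and on the right the CXC, X and CX3C receptors and the CC receptors. Only 8 genes lie above the mark of the array in question in all 6 lungs. For 1 of them, Cxcl12, the point of LN4 replicate 3 (7.51) falls within the band.

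The genes above background included those that lung epithelium and resident macrophages are known for. Cxcl15, also called lungkine, is a neutrophil-attracting chemokine that mouse airway and alveolar epithelium secretes. It was at 11.79 and 11.55 in LN4 lungs, 11.90 and 12.47 in PC3 lungs, and 12.12 and 12.43 in Control lungs. Both LN4 lungs lay below all 4 others. Cxcl17, a chemokine of mucosal epithelia, was at 9.65 and 8.36 in LN4 lungs, 9.50 and 9.18 in PC3 lungs, and 9.54 and 9.32 in Control lungs. Its groups overlapped, and LN4 replicate 3 was the lowest array. Ccl6, made by macrophages and other myeloid cells in the mouse, was at 9.60 and 9.96 in LN4 lungs, 9.94 and 10.24 in PC3 lungs, and 9.90 and 10.09 in Control lungs. In all 3 groups its high-detection array held the higher value. Cxcl16, which exists as a membrane-bound form and draws cells with Cxcr6, was at 8.44 and 8.16 in LN4 lungs, 8.37 and 8.80 in PC3 lungs, and 8.44 and 8.63 in Control lungs. Its receptor gene Cxcr6 was below the background on every array, between 4.49 and 4.94.

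The other neutrophil-attracting chemokines stayed below the background. Cxcl1, Cxcl2, Cxcl3 and Cxcl5 are ligands of Cxcr2 that epithelium and myeloid cells make under inflammatory stimuli. Cxcl1 was at 6.42 and 6.29 in LN4 lungs, 6.56 and 5.78 in PC3 lungs, and 6.04 and 5.92 in Control lungs. Its LN4 and Control values did not overlap, while the PC3 lungs spanned both. Cxcl2, Cxcl3 and Cxcl5 lay between 3.80 and 4.66 in all lungs, too low to be tested. In the gene order of RefSeq's GRCm38.p6, Cxcl5, Cxcl3, Cxcl15, Cxcl1 and Cxcl2 lie within a run of 7 genes on chromosome 5, so the run holds 1 gene above background on every array and 4 above it on none.

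The 300-base promoters of Cxcl15 and Cxcl1, neighbours that differ in this way, are shown from RefSeq's GRCm38.p6, each running from 250 bases before the gene's start to 50 after it. They lie at chr5:90794284-90794583 and chr5:90890995-90891294, both on the plus strand. Both strands were searched for the TATA motif TATAAA, the GC box GGGCGG and the NF-kappaB consensus site, named here without its letters since it has variable positions. Capitals mark the matches.
Cxcl15: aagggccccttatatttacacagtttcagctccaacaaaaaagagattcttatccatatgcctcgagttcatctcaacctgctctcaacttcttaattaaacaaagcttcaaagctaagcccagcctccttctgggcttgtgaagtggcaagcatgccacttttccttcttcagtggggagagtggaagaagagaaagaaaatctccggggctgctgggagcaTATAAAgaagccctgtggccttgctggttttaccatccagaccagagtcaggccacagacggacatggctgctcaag
Cxcl1: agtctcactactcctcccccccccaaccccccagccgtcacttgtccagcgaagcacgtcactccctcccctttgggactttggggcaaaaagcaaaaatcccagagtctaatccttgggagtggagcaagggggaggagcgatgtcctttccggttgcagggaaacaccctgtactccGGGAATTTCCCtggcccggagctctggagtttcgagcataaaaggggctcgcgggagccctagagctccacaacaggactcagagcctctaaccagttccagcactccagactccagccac
Cxcl15 held TATAAA 27 bases before its start and no match to the other motifs. Cxcl1 held the NF-kappaB consensus 71 bases before its start, matched on both strands by overlapping sites. Of 32851 mouse promoters of this length, 8.46% held the NF-kappaB consensus and 13.6% TATAAA. RefSeq promoters were at hand for 41 of the 56 genes, 45 promoters in all, of which 11 (24.4%) held the NF-kappaB consensus and 13 (28.9%) the TATA motif. The GC box was in 10 of the 45 (22.2%), against 35.7% of all promoters. These shares describe letters, and were not tested.

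Among the homeostatic chemokines, Cxcl12, which stromal and endothelial cells make, holds leukocytes and stem cells in tissue through Cxcr4. It was at 8.03 and 7.51 in LN4 lungs, 7.82 and 8.14 in PC3 lungs, and 8.03 and 8.02 in Control lungs. The groups overlapped. Cxcr4, carried by most leukocytes and by lung endothelium, was at 8.74 and 8.79 in LN4 lungs, 8.98 and 9.54 in PC3 lungs, and 9.26 and 9.71 in Control lungs. Both LN4 lungs lay below all 4 others, and it was the only receptor gene above background on every array. Ackr3, which the file calls Cxcr7, is an atypical receptor that takes up Cxcl12. It was at 6.82 and 7.57 in LN4 lungs, 7.00 and 7.25 in PC3 lungs, and 7.37 and 7.49 in Control lungs, with both PC3 lungs under both Control lungs and the LN4 lungs on either side.

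Cxcl14, a chemokine of epithelia and stroma, was at 8.13 and 7.29 in LN4 lungs, 8.02 and 8.17 in PC3 lungs, and 8.69 and 8.47 in Control lungs. All 4 lungs given conditioned medium lay below both Control lungs. Ccl21a, which lymphatic endothelium makes to call in T cells and dendritic cells through Ccr7, was at 9.46 and 8.99 in LN4 lungs, 8.97 and 9.10 in PC3 lungs, and 9.65 and 9.37 in Control lungs. Its 4 probe sets gave identical values, and the mouse genome holds near-identical copies of the gene, so the level cannot be assigned to 1 copy. The neighbouring Ccl19, the other ligand of Ccr7, had 5 probe sets and stayed below background, at 7.04 and 6.55 in LN4 lungs, 6.67 and 6.31 in PC3 lungs, and 6.99 and 6.58 in Control lungs. Ccr7 itself, carried by naive T cells and migrating dendritic cells, was at 6.45 and 6.19 in LN4 lungs, 6.56 and 6.47 in PC3 lungs, and 6.81 and 6.85 in Control lungs. The 3 groups of Ccr7 did not overlap, all under the background. Cxcl13, the B cell follicle chemokine, lay between 5.28 and 6.38, and its receptor gene Cxcr5 between 4.18 and 5.18. Ccl25 and Ccl27a, the ligands of Ccr9 and Ccr10, were below background on every array, between 5.71 and 7.42.

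The promoters of Cxcr4 and Cxcl14, the receptor and the ligand with the smallest unadjusted p between LN4 and Control lungs, lie at chr1:128592250-128592549 and chr13:56296502-56296801, both on the minus strand, and are shown 5′ to 3′ with the same motifs in capitals.
Cxcr4: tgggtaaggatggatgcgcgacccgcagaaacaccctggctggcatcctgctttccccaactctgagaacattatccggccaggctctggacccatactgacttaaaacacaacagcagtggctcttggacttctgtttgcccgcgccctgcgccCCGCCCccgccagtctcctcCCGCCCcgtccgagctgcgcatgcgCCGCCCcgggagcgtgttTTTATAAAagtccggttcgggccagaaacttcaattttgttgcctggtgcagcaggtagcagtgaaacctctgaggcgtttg
Cxcl14: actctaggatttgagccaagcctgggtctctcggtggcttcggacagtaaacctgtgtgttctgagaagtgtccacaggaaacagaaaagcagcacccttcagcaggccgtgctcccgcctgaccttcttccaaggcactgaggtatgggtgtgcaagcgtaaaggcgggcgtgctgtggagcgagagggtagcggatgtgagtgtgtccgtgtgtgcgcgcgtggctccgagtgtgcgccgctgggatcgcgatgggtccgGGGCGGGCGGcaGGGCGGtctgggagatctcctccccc
Cxcr4 held TATAAA 30 bases before its start, overlapped by a match on the other strand, and 3 GGGCGG matches on the reverse strand. Cxcl14 held 3 GGGCGG matches, all after its start, and no TATAAA.

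The inflammatory chemokines were mostly below the background. Of 17 inflammatory CC chemokines, Ccl5 and Ccl6 were above background on every array and the other 15 on none. Ccl5, also called RANTES and made by T cells and NK cells, was at 7.82 and 7.99 in LN4 lungs, 7.77 and 8.45 in PC3 lungs, and 8.38 and 8.49 in Control lungs. Both LN4 lungs lay below both Control lungs, and the PC3 lungs reached from the LN4 to the Control level. Ccl2, which calls in monocytes through Ccr2, was at 4.98 and 4.45 in LN4 lungs, 5.10 and 4.44 in PC3 lungs, and 4.82 and 4.43 in Control lungs. In each group the low-detection array held the higher value, and the gene was too dim to be tested. Ccr2 ran the other way, at 5.24 and 5.74 in LN4 lungs, 5.59 and 5.84 in PC3 lungs, and 5.47 and 6.01 in Control lungs. Its groups overlapped, with the high-detection array higher in each. The remaining CC chemokines were given by their ranges. Ccl3 and Ccl4, the macrophage inflammatory proteins, lay between 5.09 and 5.92. The eotaxins Ccl11 and Ccl24, which draw eosinophils through Ccr3, and the related gene Ccl26 lay between 3.99 and 5.65. The monocyte chemokines Ccl7, Ccl8 and Ccl12 were between 3.67 and 5.75. Ccl17 and Ccl22, ligands of Ccr4, lay between 4.68 and 6.28. Ccl20, the ligand of Ccr6, was between 5.22 and 5.64, Ccl1, the ligand of Ccr8, between 5.07 and 5.58, Ccl28, a mucosal ligand of Ccr10, between 4.02 and 4.42, and Ccl9 between 6.08 and 6.40. The interferon-induced Cxcl9 and Cxcl10, ligands of Cxcr3 on effector T cells, and the related gene Cxcl11 lay between 4.07 and 5.63. Cxcl10 was at 5.51 and 5.63 in PC3 lungs, above 5.34 and 5.33 in Control lungs, and at 5.37 and 5.24 in LN4 lungs.

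Cx3cl1, a membrane-anchored chemokine of endothelium and epithelium, was at 7.85 and 7.15 in LN4 lungs, 7.83 and 7.64 in PC3 lungs, and 7.88 and 7.87 in Control lungs. Both Control lungs lay above the rest, the margin to LN4 replicate 1 being small, and LN4 replicate 3 was the lowest. Its receptor gene Cx3cr1, of patrolling monocytes and NK cells, was at 7.01 and 6.20 in LN4 lungs, 6.57 and 6.39 in PC3 lungs, and 6.91 and 6.77 in Control lungs. Cxcr2, the main chemokine receptor of mouse neutrophils, had the widest range of all 56 genes. It was at 5.93 and 7.12 in LN4 lungs, 5.34 and 5.64 in PC3 lungs, and 5.28 and 6.00 in Control lungs. The high value was that of LN4 replicate 3, and even it lay under that array's background of 7.37. The 11 CC receptors lay below background in every lung, between 3.85 and 6.85. Cxcr1 and Cxcr3 did so too, between 6.07 and 6.41 and between 5.54 and 5.80. Xcl1, made by NK cells and activated T cells, lay between 4.48 and 4.91, and its receptor gene Xcr1, of cross-presenting dendritic cells, between 4.99 and 5.37.

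**Figure D2:**
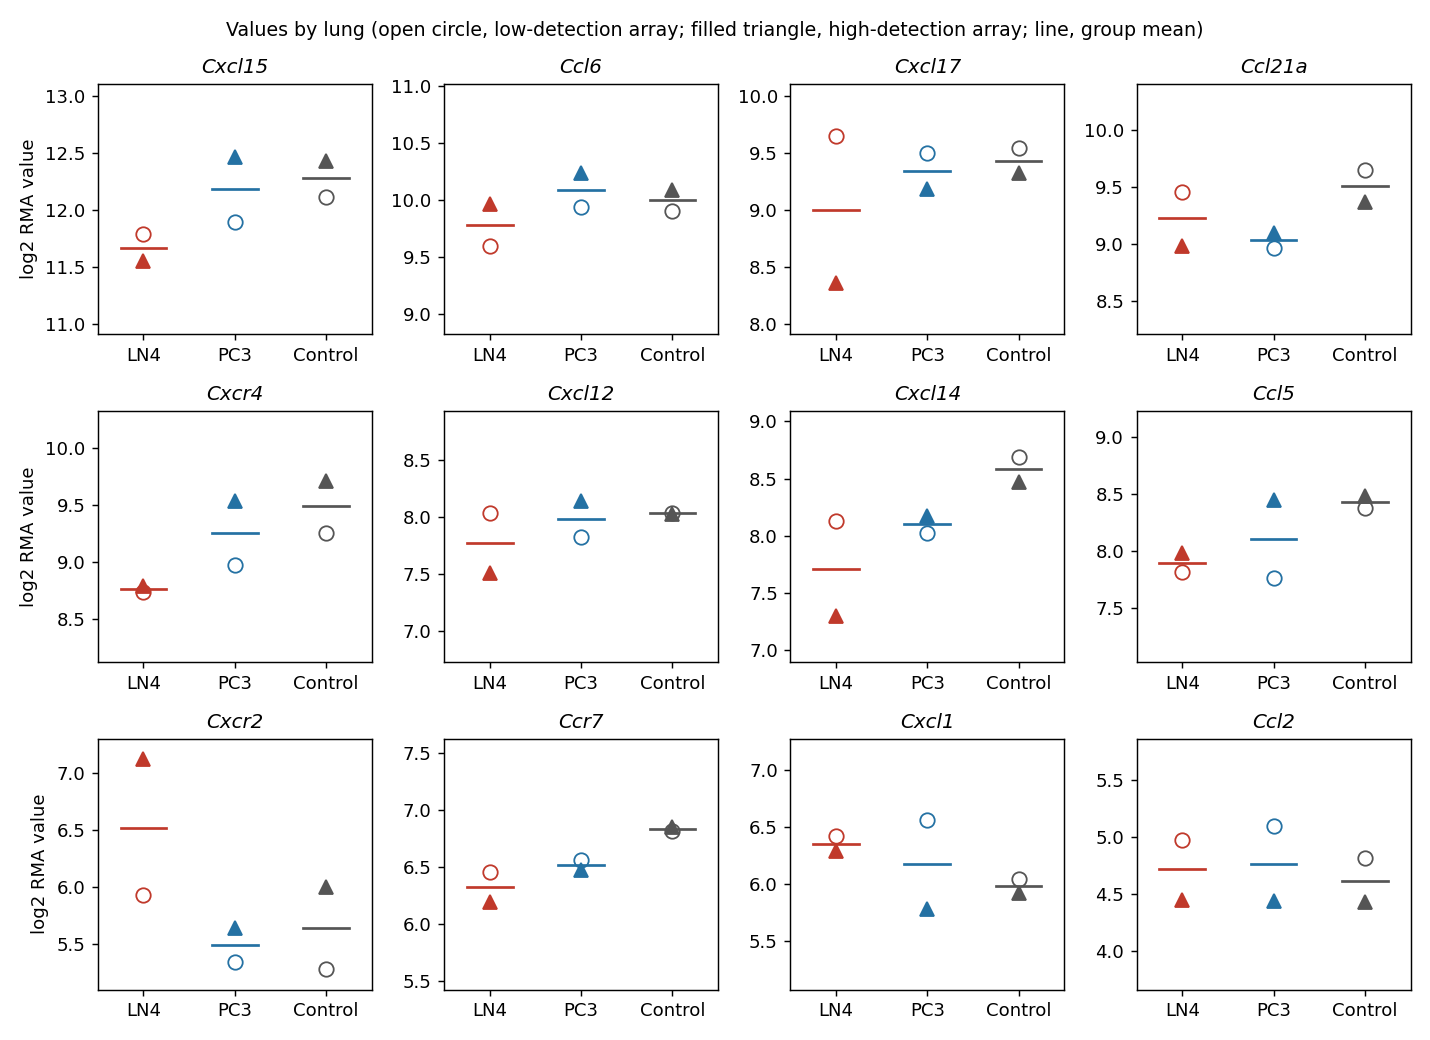
Log2 RMA values of 12 chemokine and receptor genes in each lung, grouped as LN4, PC3 and Control, each panel with its own scale of equal span. Open circles are low-detection and filled triangles high-detection arrays, and lines are group means; Cxcr4 and Cxcl15 have both LN4 lungs lowest, Cxcl14 has both Control lungs highest, and Cxcr2 is high in LN4 replicate 3 alone.

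The comparison of LN4 with Control lungs asked how the medium of the metastatic line differs from plain medium. No gene passed: 0 of the 39 tested chemokine and receptor genes, and 0 of 21330 probe sets (0.0%), had an adjusted p under 0.05 in limma. At an unadjusted p under 0.05 there were 437 probe sets, 0.849% of those tested being higher and 1.2% lower in LN4 lungs. Of the 39 genes, 4 (10.3%) were among the lower and none among the higher. Those 4 were Cxcl14, Cxcr4, Ccr7 and Cxcl15. Cxcl14 averaged 7.71 ± 0.59 in LN4 and 8.58 ± 0.15 in Control lungs (SD, n = 2 each), a difference of -0.87 (SE 0.29). Cxcr4 averaged 8.77 ± 0.04 in LN4 and 9.49 ± 0.32 in Control lungs, a difference of -0.72 (SE 0.26). Cxcl15 averaged 11.67 ± 0.17 in LN4 and 12.28 ± 0.22 in Control lungs, a difference of -0.61 (SE 0.25). Ccr7 differed by -0.51 (SE 0.18) below background. The unadjusted p-values of the limma fit were 0.0203 for Cxcl14, 0.026 for Cxcr4, 0.0267 for Ccr7 and 0.0445 for Cxcl15, and every adjusted p was 1.0.

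For Cxcl14, Cxcr4, Cxcl15 and Ccr7 both LN4 lungs lay below both Control lungs. The differences within each kind of array were therefore bound to be negative, and only their sizes could vary. Between low-detection arrays Cxcl14 differed by -0.56, Cxcr4 by -0.52, Cxcl15 by -0.34 and Ccr7 by -0.36. Between high-detection arrays the values were -1.18 for Cxcl14, -0.92 for Cxcr4, -0.88 for Cxcl15 and -0.66 for Ccr7, each larger than between low-detection arrays. Without LN4 replicate 3 the difference of Cxcl14 was -0.45, that of Cxcr4 -0.75, that of Cxcl15 -0.49 and that of Ccr7 -0.38, none passing. Without LN4 replicate 1 the group was LN4 replicate 3 alone, the array with squamous and muscle transcripts, assumed to vary like the lungs of the other groups. Then 853 of 21330 probe sets (4.0%) passed, with Cxcl14 the only gene of the 39, at -1.29 with an adjusted p of 0.0178 in limma. Over all alternatives its adjusted p ran from 0.0178 to 1.0. The size and the call of the Cxcl14 difference thus depended on which LN4 lung was kept.

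All 8 genes above background on every array were lower in LN4 lungs, with a median difference of -0.354. The median was -0.0163 over all tested probe sets, many of them dim, and -0.0354 over the 14220 brightest. No median was worked out for all probe sets above background on every array, the closest match to these genes. The 8 genes were Cxcl15, Cxcr4 and Ccl5 (-0.53, SE 0.25), Cxcl17 (-0.43, SE 0.40), Ccl21a (-0.28, SE 0.22), Cxcl12 (-0.25, SE 0.23), Cxcl16 (-0.24, SE 0.22) and Ccl6 (-0.22, SE 0.21). Their median was -0.245 between low-detection and -0.505 between high-detection arrays. Not all 8 were lower between low-detection arrays, which leave out LN4 replicate 3. There Cxcl17 differed by 0.11, Cxcl12 by 0.0 and Cxcl16 by -0.0, and the others were lower. Over all 56 genes 19 were higher and 37 lower, with a median of -0.040. Among the 20 receptors, of which 13 were tested, 18 were lower, most of them under the background. Their median was only -0.058, and Ccr1, Ccr8, Ccr10, Cxcr1 and Cxcr6 each differed by -0.02. The share of all probe sets that were lower was not counted. The lower and the higher values reached beyond the other group's arrays for 9 (23.1%) and 3 (7.69%) of the 39 tested genes, against 16.9% and 12% of all tested probe sets. Cxcr2 was higher by 0.88 (SE 0.42) in LN4 lungs, with LN4 replicate 1 inside the range of Control lungs. Without LN4 replicate 3 its difference was 0.29. Cxcl1, one of its ligands, differed by 0.38 (SE 0.27). Cx3cl1 differed by -0.37 (SE 0.26), and by -0.02 without LN4 replicate 3. Differences smaller than their errors were those of Cx3cr1, at -0.23 (SE 0.28), Ccr2, at -0.25 (SE 0.27), Cxcl13, at 0.18 (SE 0.29), and Ccl19, at 0.01 (SE 0.26). Cxcr5, which was not tested, differed by -0.67.

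Markers of several cell types, though not of all, were lower in LN4 lungs along with these genes. Higher in LN4 than in Control lungs were 5 of 5 mesothelial markers (median 0.304), 5 of 8 eosinophil and mast cell markers (median 0.086) and 3 of 5 platelet markers (median 0.001). Of 10 lung epithelial markers none was higher in LN4 than in Control lungs, with a median of -0.332, and their summed linear RMA value was 61087.2 and 53146.3 in LN4 lungs, 62127.7 and 68064.3 in PC3 lungs, and 63804.9 and 66342.7 in Control lungs. Of 8 B cell markers all were lower in LN4 lungs, with a median of -0.597, their summed value being 742.0 and 635.6 in LN4 lungs, 772.1 and 829.4 in PC3 lungs, and 977.2 and 1095.0 in Control lungs. Dendritic cell markers were lower in LN4 than in Control lungs for 6 of 6 genes (median -0.182), NK cell markers for 6 of 8 (median -0.263), T cell markers for 7 of 9 (median -0.113) and alveolar macrophage markers for 8 of 10 (median -0.154). Most of the lymphocyte and dendritic cell markers were dim. Above background on no array were 6 of 8 B cell, 5 of 6 dendritic cell, 7 of 8 NK cell and all 9 T cell markers. Of the dendritic cell genes Zbtb46 differed by -0.0 and Clec9a by -0.02. The NK genes Klrd1 and Nkg7, both below background on every array, differed by -0.79 (SE 0.28) and -0.65 (SE 0.25), and neither passed. In LN4 replicate 3 the 8 squamous genes summed to 46791.0 and 8 skeletal muscle genes to 15642.7, against 330.3 and 498.5 in LN4 replicate 1. No marker was at 0 on the RMA scale, and the part of these tissues and cells in the differences of the chemokine genes was not tested.

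The comparison of PC3 with Control lungs asked the same of the parental line's medium. Again 0 of the 39 genes and 0 of 21330 probe sets (0.0%) passed. At an unadjusted p under 0.05 there were 477 probe sets, 0.525% higher and 1.71% lower in PC3 lungs, and no chemokine or receptor gene among them. The 2 ligands with the most negative differences were Cxcl14, at -0.48 (SE 0.29), and Ccl21a, at -0.47 (SE 0.22), with all PC3 values under all Control values for both. Ccl21a averaged 9.04 ± 0.09 in PC3 and 9.51 ± 0.20 in Control lungs, and Cxcl14 8.10 ± 0.11 in PC3 and 8.58 ± 0.15 in Control lungs (SD, n = 2 each). The difference of Ccl21a was -0.67 between low- and -0.26 between high-detection arrays. That of Cxcl14 was -0.66 between low- and -0.30 between high-detection arrays. Without PC3 replicate 4, the lung with squamous transcripts, Ccl21a stood at -0.40 and Cxcl14 at -0.41. The unadjusted p was 0.0746 for Ccl21a and 0.141 for Cxcl14 in limma, with adjusted p-values of 1.0.

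Between PC3 and Control lungs Cxcr4 differed by -0.23 (SE 0.26), Cxcl15 by -0.09 (SE 0.25), Cxcl12 by -0.05 (SE 0.23), Ccl6 by 0.09 (SE 0.21) and Cx3cl1 by -0.14 (SE 0.26). Each of these was smaller than its error, as were those of Cxcr2, at -0.15 (SE 0.42), Cxcl1, at 0.20 (SE 0.27), and Ccr2, at -0.02 (SE 0.27). Ccr7, at -0.32 (SE 0.18), Cx3cr1, at -0.36 (SE 0.28), and Ccl19, at -0.30 (SE 0.26), were below background. Cxcl13, below background, was higher by 0.51 (SE 0.29) through PC3 replicate 4, and by 0.15 without it. Over all 56 genes 27 were higher and 29 lower, with a median of -0.007, against 0.0156 over all tested probe sets. PC3 lungs lay apart from Control lungs on the higher side for 2 genes (5.13%), Cxcl10 and Ccl4, and on the lower side for 8 (20.5%), against 16.4% and 15.3% of all tested probe sets. The comparisons of both media with Control share the same 2 Control lungs, so the lower values of Cxcl14 in both are not independent. Side by side, Cxcl14 differed by -0.87 in LN4 and -0.48 in PC3 lungs, Ccr7 by -0.51 in LN4 and -0.32 in PC3 lungs, and Cxcr4 by -0.72 in LN4 and -0.23 in PC3 lungs, each against Control. The 8 B cell markers, 6 of them above background on no array, were all lower in PC3 than in Control lungs too, with a median of -0.428. All 5 mesothelial markers were higher in PC3 lungs, with a median of 0.975, and summed to 4581.9 in PC3 replicate 4 and 2664.9 in PC3 replicate 5, against 1730.5 and 1980.5 in Control lungs. Of 12 neutrophil markers 10 were lower and 2 higher in PC3 lungs, with a median of -0.188. The largest differences were -1.27 (SE 0.43) for S100a8 and -1.28 (SE 0.40) for S100a9, both below background in PC3 lungs. Of the 12 markers 9 were above background on no array. Lcn2, the only 1 above it on every array, differed by 0.13 (SE 0.26). The part of these cells in the chemokine values was not tested.

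The comparison of LN4 with PC3 lungs asked how the media of the derived and the parental line differ. Here too 0 of the 39 genes and 0 of 21330 probe sets (0.0%) passed, the smallest adjusted p being 0.842. At an unadjusted p under 0.05 there were 1094 probe sets, 2.2% higher and 2.93% lower in LN4 lungs, with 1 gene of the 39 (2.56%) among the higher and none among the lower. That gene was Cxcr2, at 1.03 (SE 0.42, unadjusted p 0.0433), with 6.52 ± 0.84 in LN4 and 5.49 ± 0.22 in PC3 lungs (SD, n = 2 each), all below background. Without LN4 replicate 3 its difference was 0.44. With LN4 replicate 3 alone, its spread again taken from the other groups, 715 of 21330 probe sets (3.35%) passed and Cxcr2 was at 1.63. Its adjusted p in limma was 0.0408 there and ran from 0.0408 to 1.0 over all alternatives. Of 12 neutrophil markers beside it 9 were higher and 3 lower in LN4 than in PC3 lungs, with a median of 0.151. S100a8 was higher by 1.14 (SE 0.43) and S100a9 by 1.24 (SE 0.40), subunits of the neutrophil protein calprotectin. Their arrays did not overlap, and the adjusted p-values were 0.842 in limma. Between LN4 and Control lungs S100a8 differed by only -0.13 and S100a9 by -0.04, whereas Cxcr2 differed by 0.88. Of the other neutrophil markers, Csf3r differed by -0.01 and Lcn2 by -0.28 between LN4 and PC3 lungs. The linear values of the 12, to which Lcn2 gives the most, summed to 2162.8 and 1867.0 in LN4 lungs, 1706.6 and 2070.1 in PC3 lungs, and 1996.2 and 2414.5 in Control lungs. Ly6g, a defining neutrophil marker, was below background throughout, between 4.34 and 4.64, and the part of neutrophils in the Cxcr2 value was not tested.

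Cxcl15 and Cxcr4 were lower in LN4 than in PC3 lungs, by -0.52 (SE 0.25) and -0.49 (SE 0.26), with arrays that did not overlap. Neither passed. Cxcl15 differed by -0.11 between the low- and -0.93 between the high-detection arrays, and Cxcr4 by -0.24 between the low- and -0.75 between the high-detection arrays. Ccl19, below background, differed by 0.31 (SE 0.26) and Ccl21a by 0.19 (SE 0.22), with groups that overlapped for both. Ccl21a differed by 0.49 between the low- and -0.11 between the high-detection arrays. Their receptor gene Ccr7, below background, was at -0.19 (SE 0.18). Over all 56 genes 20 were higher and 36 lower, with a median of -0.056, against -0.0139 over all tested probe sets. LN4 lungs lay apart from PC3 lungs on the higher side for 2 genes (5.13%) and on the lower side for 7 (17.9%), against 11.4% and 18.1% of all tested probe sets.

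**Figure D3:**
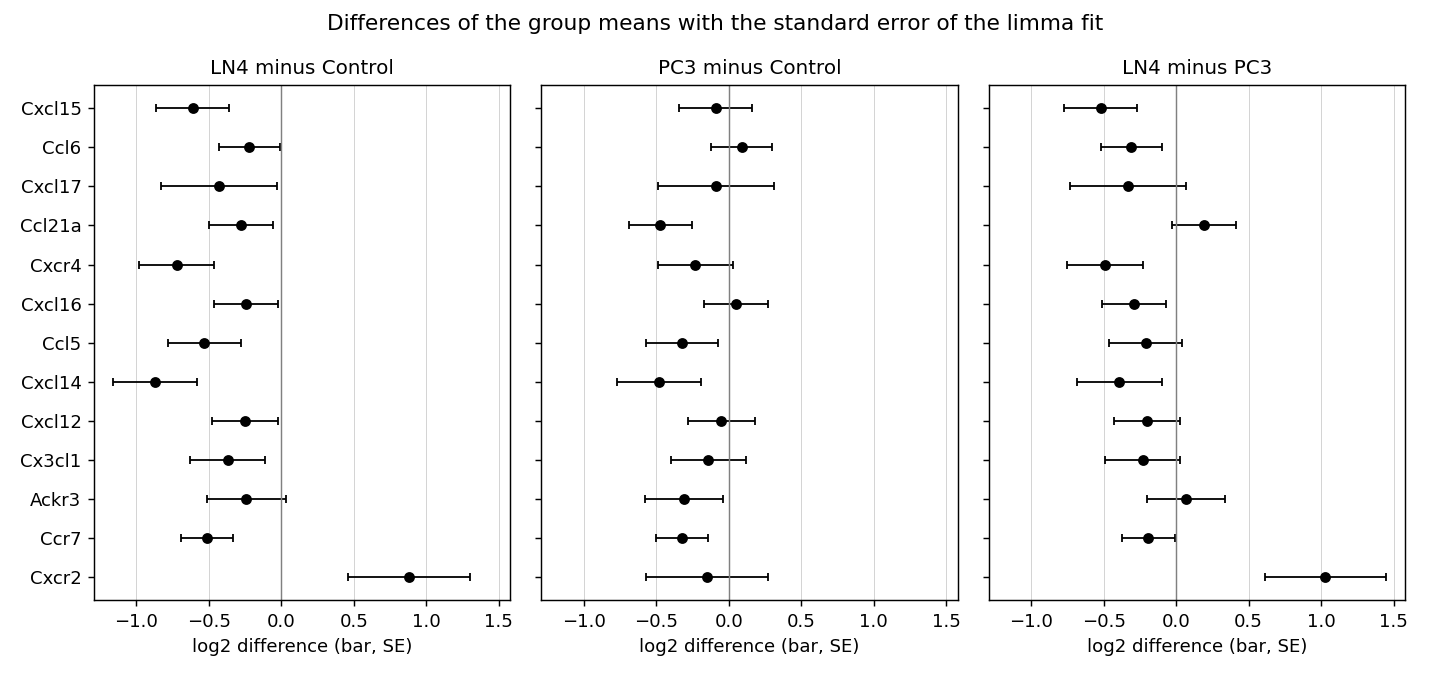
Differences in log2 RMA value with SE bars from the limma fit for 13 chemokine and receptor genes, in the panels LN4 minus Control, PC3 minus Control and LN4 minus PC3. The 8 genes above background on every array all lie left of 0 in LN4 minus Control, although Cxcl17 differed by 0.11 between low-detection arrays alone. No gene in any panel passed the adjusted test.

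For some of the chemokine genes the arrays divided by detection. All 3 low-detection arrays lay above all 3 high-detection arrays for 15 of the 56 genes (26.8%) and below them for 3 (5.36%), against 19.8% and 8.34% of all 28440 probe sets that were no control. The 15 were Cxcl17, above background on every array, and 14 of the 45 genes that were above it on no array. That is 31.1% of those 45, close to the 28.7% of all probe sets below background on every array. Among the 14 were Ccl26, with a difference of 0.56 between the means of low- and high-detection arrays, Ccl2 with 0.53 and Cxcl5 with 0.44. The 3 genes on the other side were Ccl6, Ccr2 and Ccr1. For these genes the order of the arrays followed detection within each group, and what set detection was not tested.

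**Figure D4:**
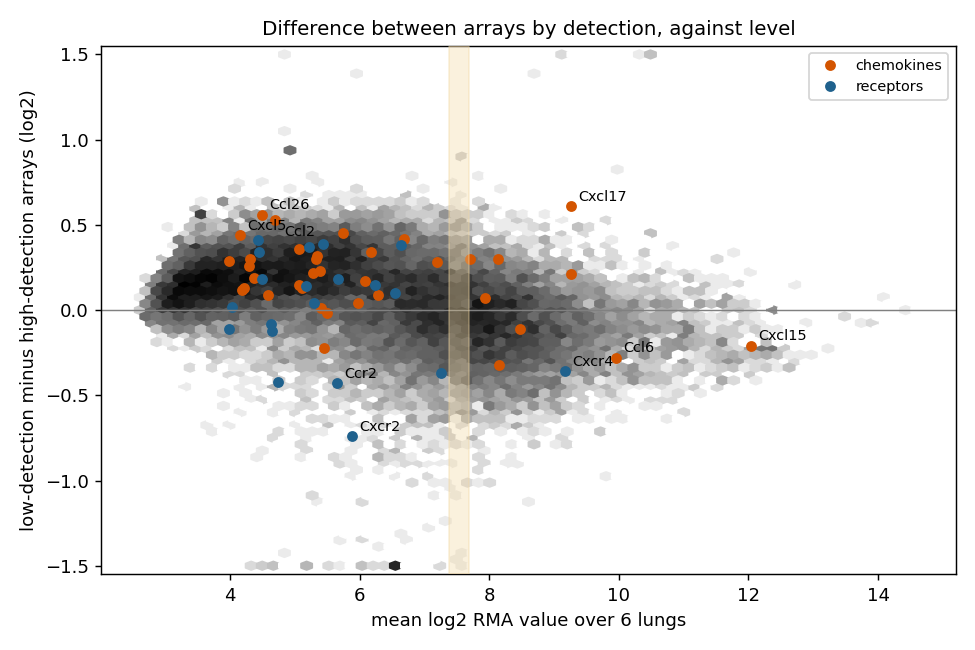
Mean over the 3 low-detection arrays minus mean over the 3 high-detection arrays, in log2 RMA values, against the mean over all 6 arrays. The grey shade is the number of probe sets on a log scale, values beyond 1.5 in size being drawn at 1.5, the band is the range of the negative control level, and coloured points are the 56 chemokine and receptor genes; 15 of them have all low-detection arrays higher and 3 all lower.

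LN4 replicate 3 was the lowest of the 6 arrays for 25 of the 56 genes (44.6%), against 27.0% of all probe sets. Among the 8 genes above background on every array it was lowest for 4 (50%), against 29.9% of all probe sets above background on every array. Neither Control lung was the lowest for any of those 8. Of all probe sets above background on every array, Control replicate 2 was lowest for 16.6% and Control replicate 4 for 1.78%. LN4 replicate 1, given the same medium, was lowest for 6 of the 56 genes (10.7%) and highest for 15 (26.8%), against 12.8% and 26.9% of all probe sets. Among the 8 genes it was lowest for 2 (25%), against 22.6% of all probe sets above background on every array. The medium of LN4 replicate 3 and its squamous and muscle transcripts cannot be told apart in these values.

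Other genes of the chemokine system, outside the naming rule, were measured too: the platelet chemokines, the peptidase that trims chemokines, and the G proteins and relays behind the receptors. Of 26 such genes 24 were tested and none passed in any comparison. In LN4 against Control lungs 18 were lower, with a median of -0.154. The smallest unadjusted p-values there belonged to Gng2, a G protein subunit, at -0.54 (SE 0.21), Cmklr1, the chemerin receptor, at -0.45 (SE 0.19), Dock2, a Rac activator in leukocyte migration, at -0.45 (SE 0.19), and Rac2, a leukocyte Rac GTPase, at -0.46 (SE 0.20). In PC3 against Control lungs they belonged to the platelet chemokines Pf4, at -0.57 (SE 0.20), and Ppbp, at -0.42 (SE 0.18), to the receptor brake Rgs2, at -0.56 (SE 0.21), and to Dpp4, at 0.57 (SE 0.21). Of these genes Gng2 and Pf4 lay above background on no array, Dock2 on 2, Rgs2 on 4 and Rac2 on 5. Dpp4 cuts the ends of Cxcl12 and other chemokines. It was at 8.94 and 9.20 in LN4 lungs, 9.77 and 9.90 in PC3 lungs, and 9.07 and 9.47 in Control lungs. Both PC3 lungs lay above the other 4. The difference of LN4 from PC3 lungs was -0.76 (SE 0.21, adjusted p 0.842 in limma).

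Genes that switch chemokines on were measured as well. Of 20 such genes, cytokines and parts of the NF-kappaB and interferon pathways, 16 were tested and none passed. Ltb encodes lymphotoxin beta, which induces the homeostatic chemokines of lymphoid tissue. It was at 6.92 and 6.65 in LN4 lungs, 6.72 and 6.66 in PC3 lungs, and 7.39 and 7.19 in Control lungs. The Control lungs were above the other 4, with differences of -0.50 (SE 0.19) in LN4 and -0.59 (SE 0.19) in PC3 lungs, below the background on every array. Nfkbia, the NF-kappaB inhibitor that the pathway itself induces, was at 9.96 and 9.71 in LN4 lungs, 9.94 and 9.74 in PC3 lungs, and 9.55 and 9.80 in Control lungs, and its groups overlapped.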

How the data were processed

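Whole-lung RNA of 6 mice, 3 groups of 2, was hybridised to Affymetrix mouse gene arrays, using 10 ug of total RNA, per the labels' protocols. The authors deposited log2 values; per the submitters' processing notes these were made by RMA. This method corrects the background, brings the arrays to 1 distribution and summarises probes, so the arrays are not independent of each other. The software version is not given in the sources used here. Per the file headers, the authors' chip report lists the percent of detected probe sets and mean raw intensity per array. Arrays have no read depth, so their number limits the precision.

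Groups came from the sample titles. Of 35556 probe sets, 7116 controls and the dimmest 25% of the others (mean under 4.714) were left out, leaving 21330. Of the 28440 others, 25004 had 1 gene symbol, 2 several and 3434 none. Symbols were updated through the RefSeq table of GRCm38.p6 (22267 by accession, 1415 by symbol, 557 by older symbol, 765 kept). Coordinates are given for RefSeq promoters only, since the annotation of the array rests on an earlier build. Groups were compared with limma 3.58.1 in R 4.3.3 (3 group means, empirical Bayes with prior degrees of freedom 3.885 and residual 3, two-sided, Benjamini-Hochberg over 21330 probe sets, adjusted p of 0.05). Figures used matplotlib 3.10.9. In data simulated for PC3 minus Control with 21330 probe sets, 6 of 100 changed by 1 and 70 of 100 changed by 2 on the log2 scale were recovered, and 5 of 21130 unchanged ones were called.

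The genes, lists, tests and alternatives were chosen with earlier results of these data known. Differences with SE were planned for 16 genes of known ligand and receptor pairs, for genes above background whose arrays did not overlap, and for up to 4 genes per pathway list and comparison. Others were named after their values were seen, and 1 receptor gene is counted but not described. The 17 alternatives changed the filter, prior, samples, normalization, weights, detection, arrays and choice of probe set.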

Additional observations from a re-analysis of the deposited data

How the results depend on the processing

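With 2 lungs per group, and most of these genes under the background, small differences could not be resolved. Over 17 alternatives, values of single genes reversed in 34 cases, passed in 5, moved in 18 and, in 623, stayed on their side of the threshold or, untested, within the spread. Many of the 623 could not have reversed, since several alternatives leave the difference between group means unchanged. These were the filters, the prior, the 2 groups alone, the detection block and the array weights, which were equal within each group. Leaving out a lung of the third group also left it unchanged, as did the mean over all probe sets for genes with 1 probe set. In low- or high-detection arrays alone, which give no test, 12 values of single genes had the opposite sign. Leaving out each lung in turn, the probe sets passing ran from 0 to 853 for LN4 minus Control and from 0 to 715 for LN4 minus PC3, both highest without LN4 replicate 1, when LN4 replicate 3 alone stood for its group and the spread came from the other groups, and the chemokine and receptor genes passing from 0 to 1 in both: Cxcl14 without that lung in the first and Cxcr2 (1.63) in the second. The median of the 56 genes then ran from -0.179 to 0.064 for LN4 minus Control. Without the 2 arrays with squamous genes (LN4 replicate 3 and PC3 replicate 4), each medium had 1 lung. The fit had 1 residual degree of freedom, from the Control lungs, against 85.0 prior ones. The spread of each gene thus came mostly from a value shared by all probe sets. The calls that follow therefore do not rest on the measured spread of each gene. The probe sets passing were then 514 for PC3 minus Control, 200 for LN4 minus Control and 2593 (12.2%) for LN4 minus PC3. In LN4 minus PC3 3 chemokine and receptor genes passed, Cxcr4 (-0.80, adjusted p 0.0214 in limma, range over alternatives 0.0214 to 1.0), Ccl19 (0.74, 0.0347, range 0.0347 to 1.0) and Cxcl15 (-0.68, 0.05, range 0.05 to 1.0), and the median of the 56 genes was 0.133. Without these arrays, PC3 minus Control reversed for Ccr2 (0.10), Cxcl1 (-0.19), Cxcl12 (0.11), Cxcl15 (0.20), Cxcr2 (0.00) and Cxcr4 (0.05), LN4 minus Control for Cx3cr1 (0.17) and Cxcl12 (0.01), and LN4 minus PC3 for Cx3cl1 (0.21) and Cxcl13 (0.11). Quantile normalization turned Ccr2 in PC3 minus Control to 0.00. Leaving out single lungs reversed further values: in PC3 minus Control Ccr2 ran from -0.29 to 0.25, Cxcl1 from -0.19 to 0.58, Cxcl12 from -0.21 to 0.11, Cxcl15 from -0.37 to 0.20, Cxcr2 from -0.51 to 0.21 and Cxcr4 from -0.51 to 0.05. In LN4 minus Control Ccl19 ran from -0.24 to 0.26, Ccr2 from -0.52 to 0.02, Cx3cr1 from -0.64 to 0.17, Cxcl12 from -0.51 to 0.01 and Cxcl13 from -0.06 to 0.41. In LN4 minus PC3 Ccl21a ran from -0.05 to 0.42, Ccr2 from -0.48 to 0.03, Cx3cl1 from -0.58 to 0.12, Cx3cr1 from -0.28 to 0.53, Cxcl1 from -0.20 to 0.57, Cxcl12 from -0.46 to 0.06 and Cxcl13 from -0.69 to 0.03. The cause of these changes was not tested. No paired analysis was possible because the groups share at most 1 replicate number.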
